A study of Rattus norvegicus with 33 samples.

Results

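The left and right lumbar dorsal horn were compared in adult rats whose left hindpaw was injected with carrageenan on postnatal day 3 (P3). The comparison takes the 12 arrays titled for the left or right cord after the P3 injection, 6 per side, of 33 arrays in all, and covers all 222 probes of their platform. Its measure is the mean log ratio of the left arrays minus that of the right arrays, and the question it addresses is what depends on the injected side. Left arrays 5 and 6, and right arrays 1 and 2, were near-identical. The mean of each pair stands as 1 sample, here called left sample 5 and right sample 1, which gave 5 samples per side.

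Every animal was a male rat whose tissue was taken at postnatal day 60. The injected pups had a single dose of 0.25% carrageenan in saline, 1 µl per g of body weight. Carrageenan is a seaweed polysaccharide that inflames the skin where it is injected. On each array, tissue of carrageenan-treated rats and control tissue of the same side, in different Alexa dyes, were hybridised together, so a value sets treated against control within 1 side. How the control rats were handled is not described in the sources used here. The labels name no strain and do not say whether animals were pooled, whether the 2 sides came from the same rats, or which arrays are from the baseline state and which from adults whose injected paw was inflamed again with complete Freund's adjuvant. Separate animals for the arrays of a side are not stated either, so p-values measure only the spread between these samples, which may be technical. The log base and the direction of the ratio are not stated in the sources used here. Values are read as log2 ratios and signs are given as deposited.

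The dorsal horn is where primary sensory fibres from the paw reach the spinal cord, and those of the left paw enter mainly on the left side. Glutamate carries the fast excitatory signal there through AMPA, kainate and NMDA receptors, while GABA from local neurons inhibits it. Serotonin and noradrenaline fibres descending from the brainstem, opioid and other peptides, neurotrophins and cytokines tune this relay.

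The 12 arrays were alike in centre and unlike in spread. Array medians lay between 0 and 0.0855, and the within-array SD of log ratios ran from 0.418 (left 1) to 1.10 (left 3) for left arrays and from 0.353 (right 6) to 0.774 (right 4) for right arrays. Over samples, this SD had a mean of 0.639 ± 0.274 on the left and 0.534 ± 0.151 on the right (SD, n = 5 each). The difference of 0.10 had a two-sided exact permutation p of 0.556, and it turned to -0.011 without left sample 3. Left array 3 also held 12 values of exactly 0 and right array 4 held 8, of 25 among the 2664 values of the 12 arrays. Samples of a side resembled each other weakly. Across probes, the median r was 0.048 over 10 pairs of left samples, 0.15 over 10 pairs of right samples and 0.13 over 25 pairs of a left with a right sample, and the lowest was -0.041. These correlations are across probes of the same platform, which are not independent replicates. Left samples were thus no closer to each other than to right samples. Each left sample had a higher mean r with the right samples than with the other left samples, for example 0.20 against 0.13 for left sample 5, and right samples 1 and 3 likewise leaned to the other side, at 0.23 against 0.14 and 0.17 against 0.095. The platform held 0 probes for the neuron, astrocyte, microglia, oligodendrocyte and blood markers looked for, so the cell make-up of the 2 sides was not tested. Of the dorsal horn markers, Gad1, Pdyn, Penk and Tac1 were on the platform, but a ratio to control cannot show their level. In bulk tissue, fewer cells of a type and less RNA per cell cannot be told apart.

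No probe passed as different between the injected and the opposite side after adjustment over all probes. In limma's moderated test with Benjamini-Hochberg adjustment over all probes, 0 of 222 passed an adjusted p of 0.05 (0%), and the smallest adjusted p was 0.762. At an unadjusted p under 0.05 there were 6 probes (2.70%), 2 with the higher log ratio on the left (0.901%) and 4 with the higher on the right (1.80%). By the exact permutation test 10 of 222 probes lay under that unadjusted level and 0 passed after adjustment. That 0 says little, because 5 against 5 samples allow no permutation p below 0.00794, too high for a few probes to pass adjustment. Exact permutation p-values given below for single probes are unadjusted. Those probes were chosen for a small limma p on the same values, so they are no second line of support. By robust regression 18 of 222 probes lay under the unadjusted level and 0 passed. The 5 left and 5 right values overlapped for every probe, so 0 of 222 were separated (0%). Where 4 of 5 samples of a side are said below to lie beyond the other side, this only describes that probe. Its share over all probes was not set beside it, so it is not read as a trait of the gene. Differences were about equally split, with 117 positive and 105 negative and a median of 0.0073. The median absolute difference was 0.15 against a median SE of 0.23.

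The test leaves room for side differences, for some probes of more than 1 log unit. The 95% interval of the difference lay within 0.5 log units of 0 for 77 probes (34.7%) and within 1 log unit for 153 (68.9%). Only for these does the spread limit the difference to those sizes. Standard errors ran from 0.088 to 1.25, and 26 probes had an absolute difference above 0.5 and 4 above 1, among them Calcrl at -1.07 and Gabra6 at 1.06, whose SEs were 1.25 and 1.08.

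**Figure D1:**
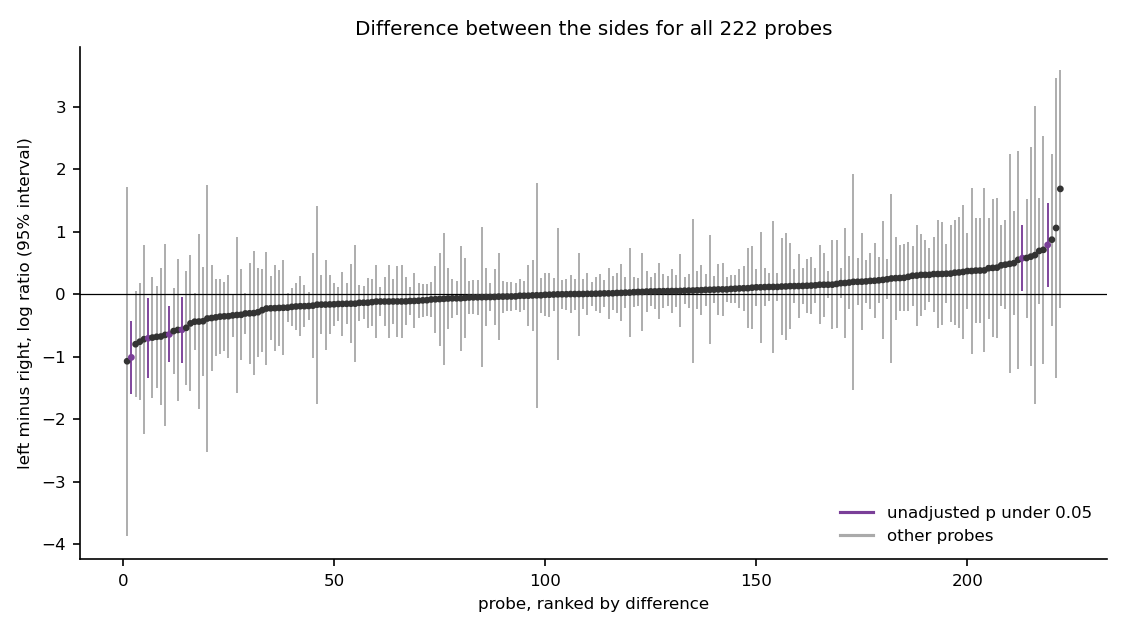
Difference of mean log ratio, left minus right (y axis, log ratio units), for all 222 probes ranked by that difference (x axis). Points are differences, vertical lines their 95% limma intervals (5 samples per side), and purple marks the 6 probes with an unadjusted p under 0.05; the intervals of the other probes include 0.

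Among glutamate receptors, the largest leaning to the left was that of Grik2, a kainate receptor subunit. Its left samples 1 to 5 had log ratios of 1.15, 0.52, 0.74, -0.024 and 0.30, and the right samples 1, 3, 4, 5 and 6 had 0.21, 0.38, -1.02, -0.57 and -0.25. Of the left samples, 3 lay above every right sample, while samples 4 and 5 lay among the right ones. The difference was 0.79 ± 0.30 (SE, 95% interval 0.12 to 1.46), with a limma adjusted p of 0.954 and a two-sided exact permutation p of 0.0476.

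Gria1, an AMPA receptor subunit, leaned to the right. The left values were -0.93, -1.44, -0.17, -0.23 and 0.015 in samples 1 to 5, and the right values 0.55, 0.24, 0.27, -0.25 and -0.036. Left samples 1 and 2 lay below all right samples, and the other left samples fell within the right range. The means of -0.55 ± 0.61 and 0.15 ± 0.31 (SD, n = 5 each) differed by -0.70 ± 0.29 (SE), with a limma adjusted p of 0.954 and an exact permutation p of 0.0556.

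The other AMPA probes were smaller in difference. For probe 62 of Gria2, the subunit that sets calcium permeability of the channel, left values ran from -0.28 to 0.33 and right values from 0.22 to 0.67. Here 4 of 5 left samples lay below every right sample, with left sample 1 the exception, and the difference was -0.31 ± 0.15 (SE, limma adjusted p = 0.954, exact permutation p = 0.0476). Probe 58 of the same gene had 0.10 ± 0.30, a sign that turned without left sample 1 or 5 or right sample 5. Gria4 had -0.57 ± 0.51 and Gria3 -0.049 ± 0.12. Of the 5 AMPA probes for 4 genes, 4 differences were negative and 1 positive, with a median of -0.31 against 0.0073 over all 222 probes, and 0 passed. Over the alternative settings that median ran from -0.37 to -0.081.

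Kainate receptor probes went both ways, with 3 positive and 4 negative differences among 7, and 5 and 2 without left sample 2. Grik4 leaned to the right at -0.59 ± 0.31 (SE, limma adjusted p = 0.954), with left values from -1.13 to 0.21 and right values from -0.34 to 0.92. Left samples 3 and 5 lay below all right samples, and the other left samples overlapped them. The 2 probes of Grik1 had -0.72 and 0.42, those of Grik3 -0.066 and 0.13, and the Grik5 probe -0.048. So Grik2 and Grik4, subunits of the same receptor class, had opposite signs, and neither passed.

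NMDA receptors, which need both glutamate and depolarisation to open, had differences of mostly one sign, from -0.68 (Grin3a probe 222) to 0.31 (Grin1 probe 80). At both ends 1 sample stood out: left sample 4 read -2.665 on probe 222, and left sample 1 read 1.37 on probe 80. Of 10 probes for 6 genes, 9 were negative and 1 positive, with a median of -0.14, and 0 passed. Over all 222 probes 105 were negative. The count of negative probes was 8 or 9 under each alternative setting. Probes of this list share a gene: 4 are for Grin1, the obligate subunit, and 2 for Grin3a. Probe 77 of Grin1 had values of 0.10, -0.25, -0.018, -0.025 and -0.042 in left samples against 0.33, 0.10, 0.091, 0.093 and 0.095 in right samples. Left samples 2 to 5 lay below all right samples and left sample 1 did not, for a difference of -0.19 ± 0.10 (SE, limma adjusted p = 0.954). The other Grin1 probes had -0.16, -0.035 and 0.31, Grin2b had -0.33 ± 0.33, Grin2d -0.14, Grin2c -0.037, Grin3b -0.065, and the Grin3a probes -0.14 and -0.68.

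The metabotropic glutamate receptors, which act through G proteins, had 4 positive and 4 negative differences among 8 probes and a median of 0.0026. That split depended on the setting: it was 7 and 1 by robust regression and 2 and 6 without left sample 1, and the median ran from -0.037 to 0.091, with 0.091 without left sample 3. Grm5, a group I receptor of this class, had the most negative mean log ratios of the platform on both sides. Its values were -1.65, -0.50, -5.71, -0.19 and -2.31 in left samples against -2.06, -1.19, -2.71, -1.90 and -0.56 in right samples. All 10 were negative, and left sample 3 was far below the rest. The side difference of -0.39 ± 0.95 (SE, 95% interval -2.52 to 1.74) had a limma adjusted p of 0.954, and it turned to 0.52 without left sample 3. Grm8 had the largest positive difference of the list, 0.35 ± 0.40, with means of 0.75 and 0.40. The 2 glutamate transporters, Slc1a1 and Slc1a6, had -0.15 and 0.025.

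**Figure D2:**
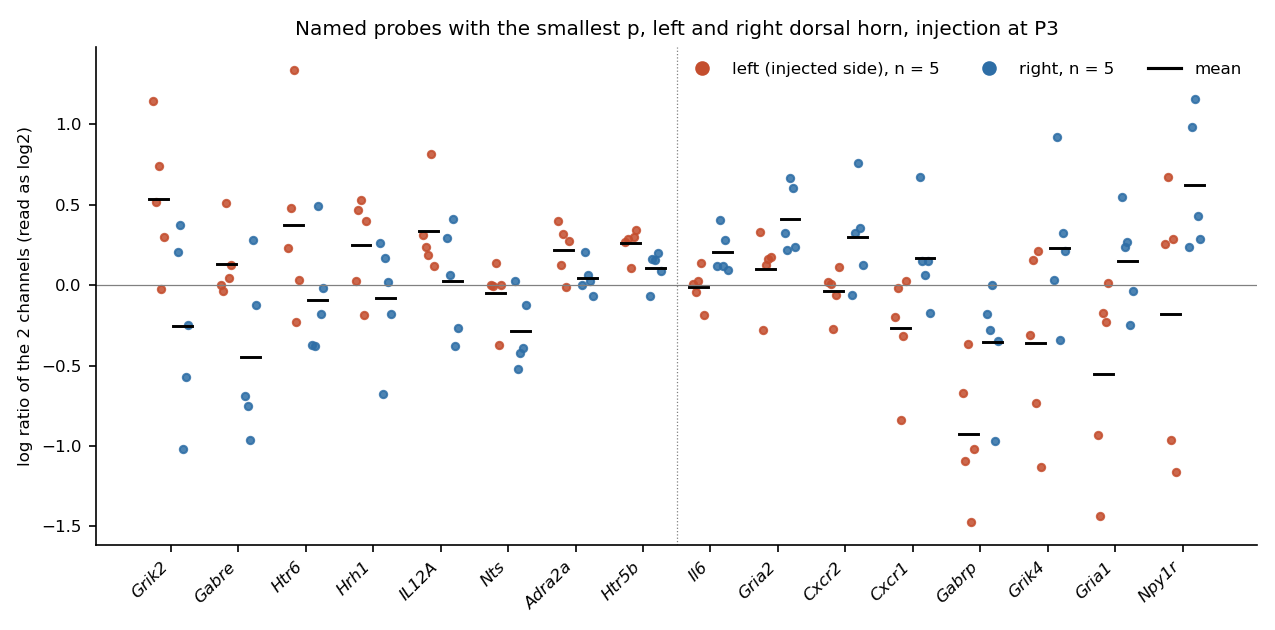
Log ratio of treated and control tissue (y axis, read as log2) in each left sample (orange, n = 5) and right sample (blue, n = 5) for the 8 named probes with the smallest p in each direction, with black bars for the means. Left-leaning probes are to the left of the dotted line; for all 16 the 2 sides overlap.

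In the GABA system, Gabre and Gabrp, which encode less common subunits of the GABA-A chloride channel, were the probes with an unadjusted p under 0.05. Probe 45 of Gabre had 0.0040, -0.038, 0.51, 0.046 and 0.13 in left samples against -0.69, -0.75, -0.96, 0.28 and -0.12 in right samples. Right samples 1, 3, 4 and 6 lay below all left samples, while right sample 5 sat above 4 of the 5 left samples. The difference was 0.58 ± 0.24 (SE, limma adjusted p = 0.954, exact permutation p = 0.0794). The second Gabre probe, number 44, from the same sequence entry, had 0.16 in left samples against 0.39 in right samples, a difference of -0.22 ± 0.31 with the opposite sign. The 2 probes of this gene thus disagreed in direction, although probe 44 turned to 0.046 without right sample 4.

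Gabrp had negative log ratios in all left samples, -0.67, -1.09, -0.37, -1.47 and -1.02, against -0.18, -0.28, 0, -0.97 and -0.35 on the right. Left samples 2, 4 and 5 lay below all right samples, and right sample 5 was about as low as the left mean, while right sample 4 was deposited as exactly 0. Its difference was -0.57 ± 0.24 (SE, 95% interval -1.10 to -0.038), with a limma adjusted p of 0.954. Of the 14 GABA-A probes for 13 genes, 9 differences were positive and 5 negative, with a median of 0.067 that ran from -0.020 to 0.12 over the alternatives, the lowest without the widest array of each side, where 6 were positive and 8 negative. Gabra6 had the largest positive difference at 1.06 ± 1.08, with wide spread on both sides: left sample 3 read 3.59 and right sample 3 read 3.03 while the others lay between -2.12 and 0.20. Gabrg1 had -0.37, Gabrr2 0.23, Gabra2 0.19 and Gabra5 0.15.

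The GABA-B receptor, a G protein-coupled receptor, was represented by 8 probes of Gabbr1. Of these, 4 differences were positive and 4 negative, from -0.76 to 0.42. Probes 33 and 34 had the most negative log ratios on the left, -0.93 ± 0.72 and -0.83 ± 0.58, against -0.25 ± 0.52 and -0.074 ± 0.85 on the right (SD, n = 5). All 5 left values of both probes were negative, and right sample 1 was as low as they were, at -1.14 and -1.40. Averaged over the 8 probes, Gabbr1 differed by -0.067 ± 0.12 (SE), with a limma adjusted p of 0.966 in the fit on gene averages. The genes of GABA synthesis and transport were all on the positive side: the transporters Slc6a11 (0.32 ± 0.39) and Slc6a13 (0.32 ± 0.27) and the synthetic enzymes Gad2 (0.16 ± 0.31) and Gad1 (0.045 ± 0.13). Their median was 0.24 and 0 of 4 passed. Over the alternatives 3 or 4 were positive and the median ran from 0.029 to 0.36, with 3 positive and 0.14 without left sample 3.

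Amine receptor probes went both ways. Htr5b, a serotonin receptor, had 0.27, 0.28, 0.11, 0.30 and 0.34 in left samples against -0.070, 0.17, 0.16, 0.20 and 0.091 in right samples. Left values were all positive and 4 of 5 lay above every right value, left sample 3 being the exception. The difference of 0.15 ± 0.095 (SE) had a limma adjusted p of 0.954 and an exact permutation p of 0.0317. Htr6 had 0.46 ± 0.29, with left values from -0.23 to 1.34 and left sample 3 the highest, and Htr1f had 0.47 ± 0.32. Htr7 was the most negative of the family at -0.35 ± 0.25. Of the 16 probes for serotonin receptors and the serotonin transporter, 7 differences were positive and 9 negative, with a median of -0.069. Without left sample 3 this turned to 10 positive and 6 negative with a median of 0.048, and over all alternatives 5 to 11 were positive.

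Adra2a, the alpha-2A adrenergic receptor through which noradrenaline dampens pain signals in the cord, was among the left-leaning genes. Probe 10 had 0.40, 0.12, 0.32, -0.0080 and 0.28 in left samples against -0.0010, 0.20, 0.063, 0.025 and -0.065 in right samples. Left samples 1, 3 and 5 lay above all right samples, and the difference was 0.18 ± 0.11 (SE, limma adjusted p = 0.954). The other Adra2a probes had 0.048 and 0.013, signs that turned in some settings with 1 sample left out. Of 10 adrenergic probes, 7 were positive and 3 negative, with a median of 0.030 and Adra1b lowest at -0.38. Without right sample 4 the count turned to 4 positive and 6 negative with a median of -0.0033, and without left sample 4 or 5 it was 5 and 5. The histamine receptor Hrh1 had 0.25 ± 0.31 in left samples against -0.080 ± 0.37 in right samples (SD, n = 5), a difference of 0.33 ± 0.21 (SE). Histamine receptor probes had 4 positive and 1 negative difference, with a median of 0.20 that ran from -0.10 to 0.27 over the alternatives, the lowest without left sample 4, where 2 were positive and 3 negative.

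Among the neuropeptide genes, Npy1r, the Y1 receptor for neuropeptide Y found on dorsal horn neurons, had the smallest p. The left samples read 0.26, 0.67, -0.96, 0.29 and -1.16 and the right samples 0.24, 0.98, 1.16, 0.43 and 0.29. All right values were positive, whereas left samples 3 and 5 were strongly negative and the other 3 left samples lay among the right ones. The difference was -0.80 ± 0.38 (SE, 95% interval -1.65 to 0.050), with a limma adjusted p of 0.954 and an exact permutation p of 0.119. Npy itself had 0.30 ± 0.36, with left sample 5 at 1.64 and the other 9 values between -0.50 and 0.11, and it turned to -0.070 without that sample. Npy5r had -0.30 and Npy2r -0.12. Of the 14 probes of the neuropeptide Y and somatostatin families, 4 differences were positive and 10 negative with a median of -0.031. Array centring gave 6 and 8, and centring with scaling 3 and 11. The split was 7 and 7 without left sample 1, without right sample 4 or with all 12 arrays unaveraged. Over the alternatives the median ran from -0.12 to -0.00215. The peptide Sst had -0.096 ± 0.11 (SE).

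Opioid genes, whose products inhibit pain signalling, had 4 positive and 6 negative differences among 10 probes. The split was 6 and 4 without left sample 5 and 2 and 8 without left sample 1. Oprk1, the kappa receptor, had 1.28, -0.18, -1.12, -0.33 and -0.40 in left samples against 0.84, 0.19, 0.88, 0.18 and -0.16 in right samples. Left samples 2 to 5 lay below all right samples, and left sample 1 was the highest of all 10. The difference was -0.54 ± 0.41 (SE, limma adjusted p = 0.954). Oprm1, the mu receptor, had -0.018 ± 0.61 in left samples against 0.10 ± 0.056 in right samples (SD, n = 5), so that its samples spread far more widely on the left, and a difference of -0.12 ± 0.26 that turned to 0.034 without left sample 2. Signs of Oprd1 and Pdyn also turned when 1 sample was left out. The delta receptor Oprd1 had -0.046 ± 0.21, the nociceptin receptor Oprl1 0.38 and 0.87 on its 2 probes, the dynorphin precursor Pdyn 0.044 ± 0.10, and the opioid precursor Pomc -0.066. On both Oprl1 probes left sample 2 was the highest value, at 1.49 and 3.35. Penk, the enkephalin precursor, had 0.052, -0.47 and -0.099 on 3 probes of 1 sequence entry. Without left sample 3, probe 191 turned to 0.058 and probe 190 to -0.039.

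The tachykinin and calcitonin gene-related peptide (CGRP) family had 9 positive and 2 negative differences among 11 probes, with a median of 0.095, and 7 and 4 without right sample 1 or 4. The substance P precursor Tac1 had 4 probes, at 0.26, 0.25, 0.057 and -0.069, with SEs from 0.12 to 0.61. Each of the 4 Tac1 probes changed sign when 1 sample was left out, for example probe 212 to -0.042 without left sample 4 and probe 213 to -0.26 without right sample 4. Calca, which encodes CGRP, had 0.16 ± 0.26 and 0.060 ± 0.23 on the 2 sides, a difference of 0.095 ± 0.16 (SE), which turned to -0.017 without left sample 3, and Calcb had 0.30. The receptor gene Calcrl had the most negative difference of any named probe, which came from 1 sample: left sample 3 read -6.43, while the other left values ran from 0.072 to 1.11 and the right values from -0.054 to 0.27. Without left sample 3 its difference was 0.30. Among other neuropeptides, neurotensin, Nts, leaned to the left on probe 177, with 0.0020, -0.0030, 0.14, -0.37 and 0.0045 against 0.028, -0.52, -0.42, -0.39 and -0.12. Right sample 1 lay among the left values and left sample 4 among the right ones, and the difference was 0.24 ± 0.14 (SE, limma adjusted p = 0.954). The other Nts probes, from the same sequence entry, had -0.038, -0.17 and 0.033. Of the 13 probes for other neuropeptides and receptors, 9 differences were positive and 4 negative, but 6 and 7 without right sample 5 and 7 and 6 without left sample 1, 3 or 4.

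Of the neurotrophins and their receptors, 4 differences were positive and 2 negative, and 3 and 3 without left sample 3. Bdnf, brain-derived neurotrophic factor, had -1.22, -0.14, -1.01, -0.012 and -1.49 in left samples against -1.26, -0.40, -0.80, 0.20 and -0.084 in right samples. Both sides were mostly negative, 5 of 5 left and 4 of 5 right samples, and left sample 5 lay below and right sample 5 above all samples of the other side, with a difference of -0.31 ± 0.36 (SE, limma adjusted p = 0.954). Its receptor Ntrk2 was positive on both sides in the mean (0.42 and 0.58, difference -0.16), and Ntf4 had 0.20, Ntf3 0.11, Ntrk3 0.021 and Ngfr 0.036.

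Cytokine genes leaned either way. Il6, an inflammatory cytokine, had 0.0060, -0.044, 0.029, 0.14 and -0.18 in left samples against 0.12, 0.41, 0.12, 0.28 and 0.092 in right samples. All right values were positive and 4 of 5 left values lay below every right value, left sample 4 being the exception. The difference was -0.21 ± 0.11 (SE, 95% interval -0.45 to 0.020), with a limma adjusted p of 0.954 and an exact permutation p of 0.0317. Il1b, another inflammatory cytokine, had 0.13 ± 0.13. IL12A, a cytokine subunit whose probe carries a human sequence entry, had 0.34 ± 0.28 in left samples against 0.025 ± 0.34 in right samples (SD, n = 5), a difference of 0.31 ± 0.19 (SE), and the rat entry Il12a had 0.33 ± 0.35. Of 37 interleukin and interleukin receptor probes, 20 were positive and 17 negative, from -0.65 (IL12B) to 0.63 (Il1a), with 0 passing. Their median of 0.12 was not stable: it ran from -0.016 to 0.14 over the alternatives, with 0.012 without left sample 3, 0.020 without left sample 2 and 0.024 without right sample 4. It was negative with centring and scaling, robust regression or array weights, and without the widest array of each side.

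The chemokine receptors Cxcr1 and Cxcr2, which draw neutrophils to inflamed tissue, were among the right-leaning genes. Cxcr1 read -0.20, -0.017, -0.84, -0.32 and 0.028 in left samples against 0.67, 0.15, 0.062, 0.15 and -0.17 in right samples. Left samples 1, 3 and 4 lay below all right samples, right sample 6 was negative like them, and the difference was -0.44 ± 0.20 (SE, limma adjusted p = 0.954, exact permutation p = 0.0476). Probe 88 of Cxcr2 had -0.038 ± 0.15 in left samples against 0.30 ± 0.31 in right samples (SD, n = 5), a difference of -0.34 ± 0.16 (SE) with a limma adjusted p of 0.954. The other Cxcr2 probes had 0.20 and -0.052, the first turning to -0.020 without left sample 4.

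**Figure D3:**
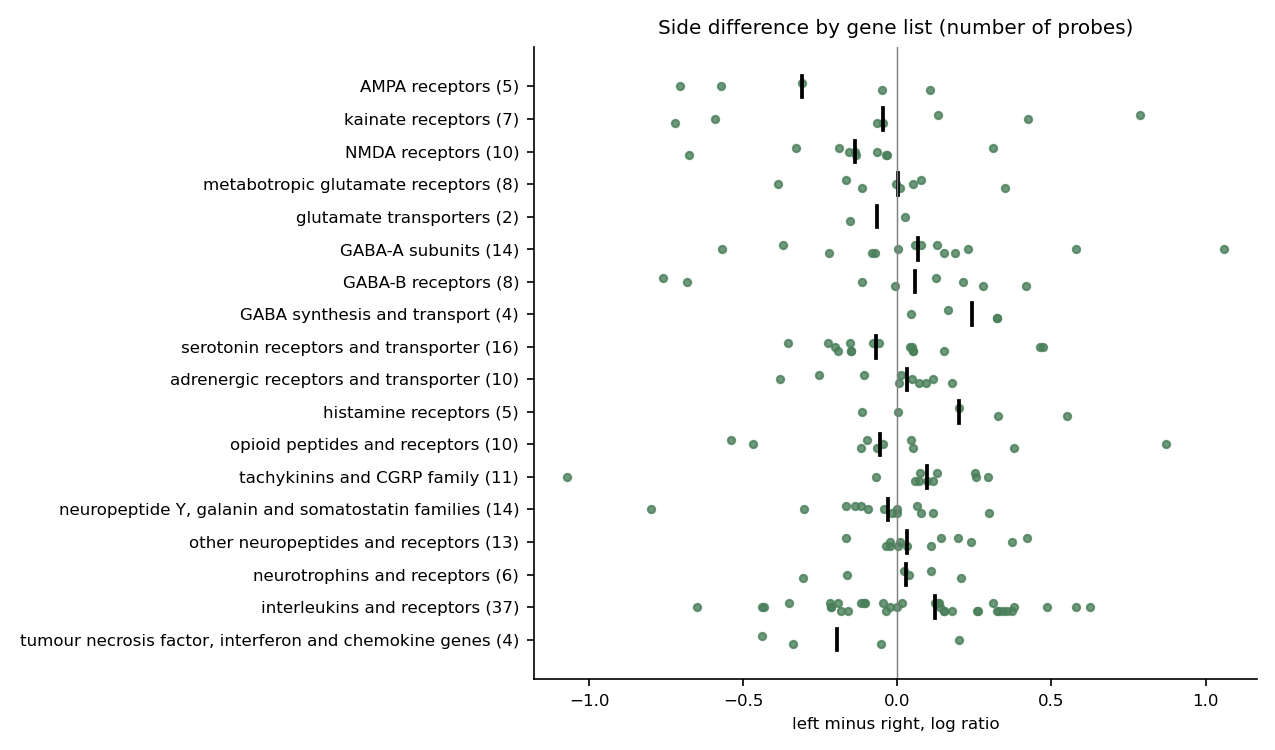
Difference of mean log ratio, left minus right (x axis), of each probe (green points) in each gene list (y axis, number of probes in brackets), with a black bar at the list's median. List medians lie between -0.31 (AMPA receptors) and 0.24 (GABA synthesis and transport), and 0 probes passed.

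The 2 smallest p-values of the whole comparison belonged to probes that have no gene name here. Probe 209 had -0.030, 0.34, -0.37, 0.12 and -0.31 in left samples against 0.10, 1.52, 0.97, 0.86 and 1.37 in right samples. Right samples 3 to 6 lay above all left samples, and right sample 1 lay among them. Its difference was -1.01 ± 0.26 (SE, 95% interval -1.60 to -0.42), with a limma adjusted p of 0.762 and an exact permutation p of 0.0238. Without right sample 1, the average of 2 arrays, the difference was -1.23 and the limma adjusted p 0.0436, the single pass in any setting tried. Probe 167 had -0.25, 0, -0.65, 0.11 and -0.12 in left samples against 0.073, 0.26, 0.42, 0.54 and 1.01 in right samples, a difference of -0.64 ± 0.20 (SE, limma adjusted p = 0.954). Right sample 1 was the only right value within the left range. The largest difference of the platform, 1.69 ± 0.85 (SE), was also of an unnamed probe, number 151, where right sample 4 read -4.05 and left sample 3 read 2.63. Of the 26 unnamed probes, 15 differences were positive and 11 negative.

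Among named probes, the widest spread between samples of a side was found in Calcrl, Grm5, Il1a, Vipr2 and Hrh4 on the left and Gabra6, Il4r, Il1a, Tac1 (probe 213) and Grm6 on the right. Il1a, an inflammatory cytokine, had left values from -3.10 to 2.38 and right values from -3.47 to 0.67, and a difference of 0.63 ± 1.07 (SE) that turned to -0.10 without right sample 5. Vipr2, a receptor for vasoactive intestinal peptide, had left sample 4 at 3.14 and the other left samples from -1.66 to -0.47, with a difference of 0.20 ± 0.77 that turned to -0.62 without left sample 4. Hrh4 had left sample 4 at 2.11, while its other 9 values were all negative, with a difference of 0.55 ± 0.78 that turned to -0.18 without left sample 4. Il4r, an interleukin receptor chain, ran from -3.28 to 1.37 on the right, for a difference of 0.49 ± 0.78 that turned to -0.30 without right sample 4. Grm6 differed by -0.17 ± 0.71, which turned to 0.45 without left sample 3. Over all probes the median SD between samples was 0.34 for left and 0.30 for right samples, and 127 of 222 probes spread more on the left.

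For 23 genes, several probes were on the platform, 61 in all. The probes shared a sign of the difference for 9 of these genes and had both signs for 14, and the median range within a gene was 0.41. Gabbr1 ranged over 1.18, Grik1 over 1.14 and Gabre over 0.80. The probes of Oprl1, at 0.38 and 0.87, were both positive, and those of Grin3a, at -0.14 and -0.68, both negative. Single samples stood out here too. Left sample 2 was the highest on both Oprl1 probes, at 1.49 and 3.35. On Grin3a probe 222, left sample 4 read -2.665 and every other value lay between -0.40 and 0.48. Each difference above is therefore that of its probe. When probes of a gene were averaged first, which gave 184 items, 0 passed and 5 had an unadjusted p under 0.05.

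**Figure D4:**
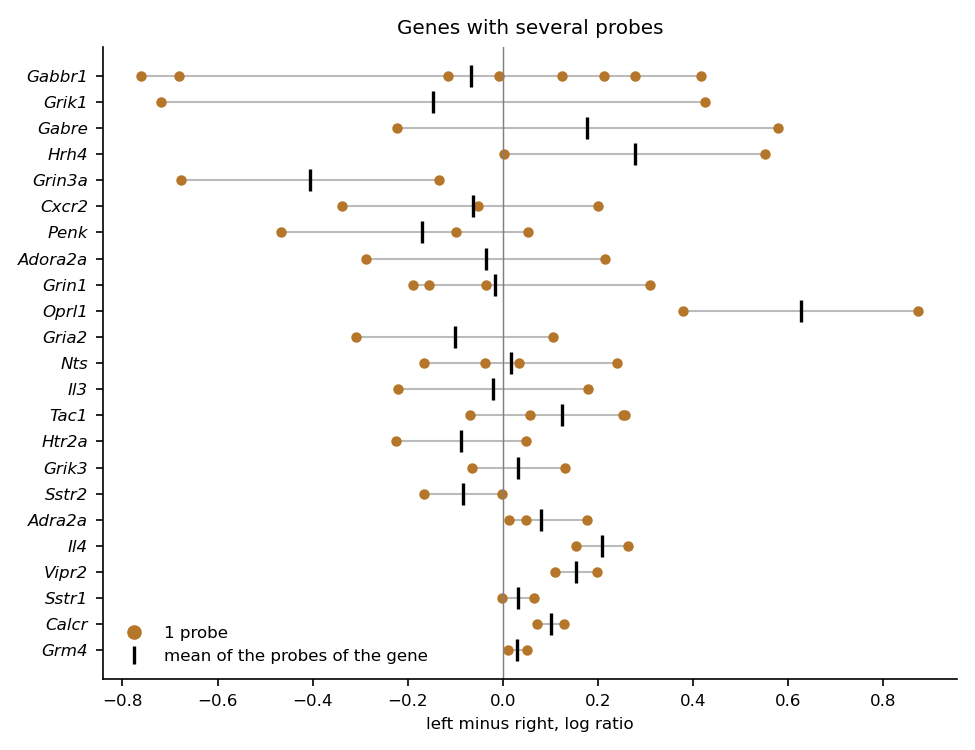
Difference of mean log ratio, left minus right (x axis), of each probe (brown points) of the 23 genes with more than 1 probe (y axis), with the mean of the gene's probes as a black tick and a grey line from the lowest to the highest probe. Gabbr1 and Grik1 span the widest ranges, 1.18 and 1.14, on both sides of 0.

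What the sides shared was compared through their mean log ratios. Left and right means correlated at r = 0.48 over the 222 probes (Spearman's rho = 0.36), and at r = 0.38 without Grm5, as a description across probes of 1 platform. They had the same sign for 149 probes (67.1%). Genes with large means of one sign on both sides were Grm5 (-2.07 and -1.68), Hrh4 on probe 93 (-0.80 and -1.35), Grm6 (-0.93 and -0.77) and IL12B (0.83 and 1.48). The other Hrh4 probe, of the same sequence entry, had 0.11 on both sides, the opposite sign. For Grm6, left sample 3 read -3.42 and right sample 4 read -2.44, while every other value lay between -0.975 and 0.101. For IL12B, whose probe carries a human sequence entry, left sample 4 read 3.03 while left samples 1 and 3 were negative. IL12B was named here after its values were seen, as were genes of the lists above that are outside the naming rule.

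**Figure D5:**
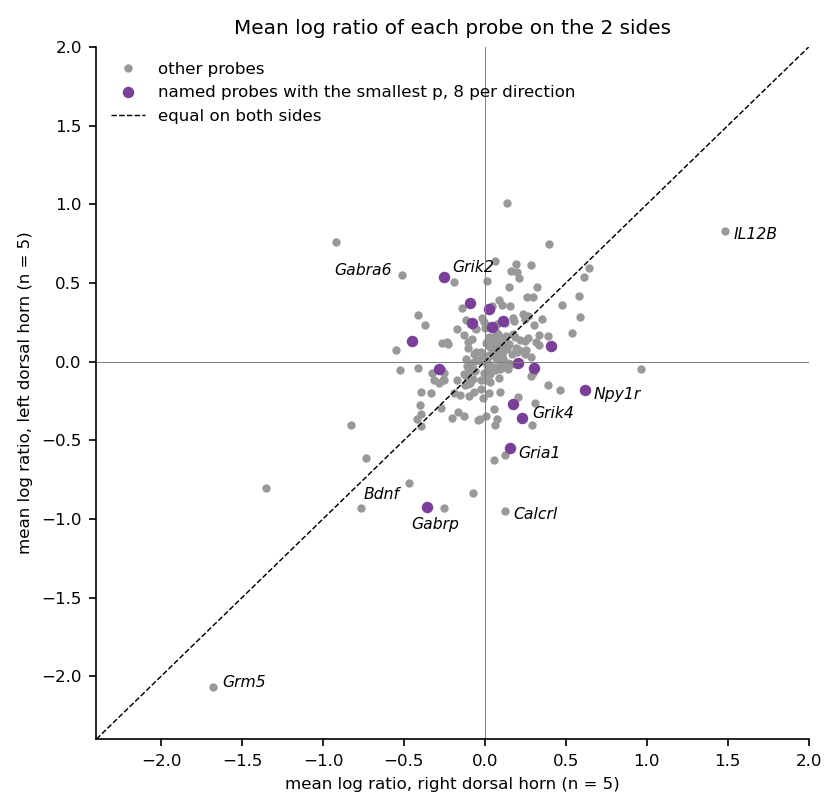
Mean log ratio in the left (y axis) against the right dorsal horn (x axis), 5 samples each, for all 222 probes; purple marks the named probes with the smallest p and the dashed line equal means. Most probes sit near 0 on both sides, and Grm5 is far from 0 at -2.07 and -1.68.

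Values from brain of the P3-injected rats and from the cord after injection on postnatal day 12 (P12) stand beside these without a test. The P12 arrays are another platform, so age and platform cannot be told apart. In brain (n = 6), Grik2 had a mean log ratio of -0.22 ± 0.55 and Gria1 had -0.58 ± 0.71 (SD). The right-cord mean of Grik2 was -0.25 and the left-cord mean of Gria1 was -0.55, but with this spread nearness to 1 side was not tested. Brain means of Gabrp, Npy1r and Il6 were -0.44 ± 1.11, -0.35 ± 0.61 and 0.091 ± 0.31 (SD). Grm5 had -2.05 ± 0.64 and Hrh4 probe 93 had -1.57 ± 0.41 in brain, negative as on both sides of the cord. At P12 (n = 5 per side), Grik2 had 0.56 ± 0.85 in the left cord against 0.65 ± 1.44 in the right cord, and Gria1 had 0.62 ± 1.81 in the left cord against 0.86 ± 1.13 in the right cord. Left minus right at P12 was -0.092 for Grik2, -0.24 for Gria1, -0.29 for Gabrp, -0.41 for Npy1r, -0.74 for Grik4, -0.16 for Il6 and 0.53 for Cxcr1. The 2 Gabre probes had 0.091 and 0.31 there, and the Gria2 probe of the same sequence entry as probe 62 had -1.37. Its means were -0.13 ± 1.11 in the left cord against 1.24 ± 0.75 in the right cord (SD). The other Gria2 probe had a difference of 0.11. The spread was also wide for Grik4, at -1.50 ± 1.51 in the left cord against -0.76 ± 0.94 in the right cord (SD). Cxcr1 had -1.52 ± 1.30 in the left cord against -2.05 ± 0.73 in the right cord (SD). Hrh1, Htr6 and Htr5b, which leaned to the left after the P3 injection, had -0.24, -0.64 and -0.034. Of the other genes with a small p after the P3 injection, IL12A had -0.35 and the Adra2a probes -0.21, 0.090 and -0.70. The Nts probes had -0.11, -0.34 and 0.023, and the Cxcr2 probes -0.20, -0.21 and 0.11. Whether the P12 differences resemble those after the P3 injection was not tested. The P12 probe of Grm5 had means of 0.12 in the left cord and 0.014 in the right cord, and that of Hrh4 -0.17 and -0.83.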

How the data were processed

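Expression was measured on 2-colour oligonucleotide arrays. Per the labels' protocols, 5 µg of total RNA per sample was reverse transcribed with primers of different capture sequence for control and treated tissue. The authors deposited 1 signed log value per probe and array, read here as a log2 ratio; scanner, background correction, normalization, log base and direction: not given in the sources used here. No spot intensities were used, so signal over background is unknown, and the number of arrays limits precision.

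Array annotation named 196 of 222 probes by 1 symbol (158 symbols), and 26 had none; 187 named probes matched the rat gene table by Entrez identifier, which changed 0 symbols. Left arrays 5 and 6 correlated at r = 0.969 (92.3% of values within 0.1) and right arrays 1 and 2 at r = 0.806 (65.8%). The highest r of any other pair was 0.417.

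Left minus right was fitted over all probes with limma 3.58.1 in R 4.3.3 (lmFit, eBayes, two-sided), after tests on simulated data, with Benjamini-Hochberg adjustment and a threshold of 0.05. Intervals are 95%. Single values used two-sided exact permutation of 5 against 5 samples, whose smallest p is 0.00794 (Python 3.11.15). Named were the 8 named probes of smallest p per direction, a panel of 15 pain-related genes, separated probes, the 5 of largest SD per side, and further probes of these genes. Members and lists were chosen with earlier results of these data known. Alternatives were averaging, centring, scaling, zeros as missing, other fits, and left-out samples.

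Replicate numbers of the titles were not taken to pair the sides.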

Additional observations from a re-analysis of the deposited data

Results flagged for a closer look

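For the named probes and the spread of arrays, each side's 5 samples were searched for 1 value whose gap to the nearest other exceeds 0.710 of the side's range. Of 126 such groups 17 had one (13.5%). Chance marks about 1 in 20 groups, but this share cannot be set against that, because the named probes include those chosen for the largest SD on a side. Left sample 3, the array with the widest spread, held 6 of them. It was highest for Calca (0.60, others up to 0.098), Gabbr1 probe 30 (0.91, others up to 0.14) and Gabra6 (3.59, others up to 0.20). It was lowest for Calcrl (-6.43, others from 0.072), Grm6 (-3.42, others from -0.75) and Penk probe 191 (-2.50, others from -0.020).

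Left sample 4 held 4 outlying values. These were IL12A (0.82, others up to 0.31), Tac1 probe 212 (1.56, others up to 0.17), Vipr2 probe 220 (3.14, others up to -0.47) and, as the lowest, Nts probe 177 (-0.37, others from -0.0030). In left sample 5, Npy stood at 1.64, with the others up to 0.051.

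On the right, sample 3 was highest for Gabra6 (3.03, others up to -1.03), Nts probe 178 (0.82, others up to 0.066) and Tac1 probe 215 (1.13, others up to 0.16). Right sample 5 was lowest for Il1a (-3.47, others from -0.34) and Pdyn (-0.25, others from -0.0090). Right sample 1 was highest for Grin1 probe 77 (0.33, others up to 0.10).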

How the results depend on the processing

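The count of passing probes was 0 in every setting tried except 1: leaving out each sample in turn gave 0 to 1, the pass being probe 209 without right sample 1. Counts at an unadjusted p under 0.05 ran from 3 (without right sample 4) to 18 (robust regression), both of 222 probes. Of 222 probes, those with separated sides numbered 0 in the main setting and 1 with 1 array kept of each near-identical pair. There were 4 without left sample 3 and right sample 4, the samples of widest spread, a setting chosen after seeing the data. Leaving out 1 sample gave 0 to 3 of 222: 3 without left 1, left 3 or right 1, 2 without left 4 or right 5, 1 without right 3 or right 6 and 0 otherwise. Fewer samples separate more easily by chance, so higher counts in these settings are not read as a side difference. The left minus right difference in array SD ran from -0.011 (without left sample 3) to 0.16 over the left-out samples. The 16 leading probes kept their sign in 23 of 23 settings that test single probes, but they were chosen for their small p. Of all 62 named probes, up to 12 turned sign, most when probes of a gene were averaged. With replicate number as a block, 0 probes passed over the 12 arrays (lowest limma adjusted p = 0.271; 9 unadjusted) and 0 over the averaged samples with a number on both sides (0.952; 8 unadjusted). The numbers were not taken as pairs because the labels do not say that they pair the sides. Same-numbered arrays had deviations correlated at r from 0.018 to 0.21, and 2 of 6 left arrays were closest to their own number. These values cannot settle pairing, because the near-identical arrays of a side carry 2 numbers: left arrays 5 and 6 were both closest to right array 6. The spread of the samples and the unknown signal over background limit these values.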

Other observations

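Named probes outside the lists, 12 in number, were looked at after their values were known. The adenosine receptors, which restrain or promote transmitter release, had left minus right differences of -0.23 ± 0.41 (SE) for Adora1, 0.22 and -0.29 for the 2 Adora2a probes, -0.084 for Adora2b and 0.0060 for Adora3. The immediate early gene Egr1 had -0.36 ± 1.29 in left samples against -0.032 ± 0.47 in right samples (SD, n = 5). Vgf, a neuropeptide precursor induced by neurotrophins, had 0.35 ± 0.49 and 0.044 ± 0.51, and Bex3 had 0.51 ± 0.89 and 0.013 ± 0.15. None of the 12 had an unadjusted p under 0.05 in the limma fit, the smallest being 0.211 (Bex3).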
